A study of Mus musculus with 64 samples.

Results

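Serotonin acts on neurons through a family of receptors, and 9 of their genes were followed here in 2 forebrain regions of mice with an epilepsy-linked allele of Cyfip2. The genes were taken by name: Htr1a, Htr1b, Htr1f, Htr2a, Htr2c, Htr3a, Htr4, Htr5a and Htr7, each found by its Ensembl identifier in the GENCODE annotation of the mouse genome GRCm38. They made up 9 of the 18432 genes in the table. The knock-in (KI) mice were Cyfip2+/R87C heterozygotes, in which residue 87 of one copy of CYFIP2 is changed from arginine to cysteine in every cell of the body, and the wild-type (WT) mice were their littermates, both on C57BL/6N. Frontal cortex and hippocampus were taken at postnatal week (PWK) 1, 7, 14 or 28, with 4 replicates per region, genotype and age. Whether both regions came from the same mice, and whether each replicate was 1 mouse, is not stated in the sources used here, so p-values measure the spread between these samples. This gave 16 groups of 4 RNA-seq libraries, 64 in all, and different mice were used at each age. Levels are given as normalized counts, which are read estimates that the authors scaled between libraries.

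Serotonin is made by neurons of the raphe nuclei in the brainstem, whose axons reach nearly all of the forebrain, so the transcripts measured here are mainly those of the receiving cells. Receptors of the 5-HT1 and 5-HT5 classes couple to Gi proteins and dampen activity, those of the 5-HT2 class couple to Gq and release calcium through phospholipase C, and those of the 5-HT4 and 5-HT7 classes couple to Gs and raise cyclic AMP. The 5-HT3 receptor differs from all of these because it is an ion channel that serotonin opens directly. Several of these receptors are drug targets in mood disorders, migraine, psychosis and nausea, and some are known to change seizure threshold in rodents.

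Promoter sequence is shown for the 3 receptor genes with more than 1 call between genotypes and a promoter entry: Htr1a and Htr1b, which fell, and Htr5a, which rose. Htr4 also had 2 calls. The 250 bases upstream of the RefSeq start were read from RefSeq sequence of GRCm38.p6, which held an entry for 7 of the 9 genes, all but Htr3a and Htr4. They are written 5′ to 3′ on the gene's own strand, with a match to the GC box GGGCGG in capitals. The Htr1a sequence lies at chr13:105443443-105443692 on the plus strand, Htr1b at chr9:81633833-81634082 on the minus strand and Htr5a at chr5:27841697-27841946 on the plus strand.
Htr1a: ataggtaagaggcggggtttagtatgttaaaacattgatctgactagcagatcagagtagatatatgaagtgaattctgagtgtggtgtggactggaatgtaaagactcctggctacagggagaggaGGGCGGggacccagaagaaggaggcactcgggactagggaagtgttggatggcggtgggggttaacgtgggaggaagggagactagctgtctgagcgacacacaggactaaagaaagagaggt
Htr1b: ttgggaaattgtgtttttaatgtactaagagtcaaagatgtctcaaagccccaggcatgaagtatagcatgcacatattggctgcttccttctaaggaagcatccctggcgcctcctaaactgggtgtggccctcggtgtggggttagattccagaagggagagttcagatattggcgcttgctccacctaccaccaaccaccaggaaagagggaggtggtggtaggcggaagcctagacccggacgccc
Htr5a: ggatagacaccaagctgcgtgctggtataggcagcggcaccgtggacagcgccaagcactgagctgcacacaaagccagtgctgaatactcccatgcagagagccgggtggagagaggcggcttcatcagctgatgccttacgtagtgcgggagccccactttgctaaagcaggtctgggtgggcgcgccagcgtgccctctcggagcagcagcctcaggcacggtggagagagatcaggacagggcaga
The full cyclic AMP response element TGACGTCA, searched on both strands, was in none of the 7 sequences and in 1.55% of the 32851 mouse promoters of the same length. Its first 5 bases, TGACG, which the full element also contains, were found in the Htr7 sequence alone among the 7 genes, and in 17.8% of all promoters. The AP-1 motif TGANTCA was found upstream of Htr2c (6.75% of all promoters), and GGGCGG upstream of Htr1a and Htr2a (32.7%). GC content was 50.4% for Htr1a, 52.4% for Htr1b and 62.0% for Htr5a, against a median of 52.4% over all promoters, and the Htr7 sequence was the richest of the 7 at 82.0%. The Htr5a start in RefSeq lies upstream of the GENCODE gene, which spans chr5:27842149-27855088. Of the 7 entries, only that of Htr5a had its strand not checked on a transcript. The sequences of Htr1a, Htr1f, Htr2a and Htr7 reach into the GENCODE gene, and the TGACG match of Htr7 lies inside it. A motif match is a description of these letters only.

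Dissection was checked with regional marker genes before the receptors were compared. The summed level of 7 cortical excitatory markers ran from 12468 to 23286 in cortex and from 4917 to 10276 in hippocampus, and that of 7 hippocampal markers from 3767 to 8930 in cortex and from 20868 to 32382 in hippocampus, so no library overlapped with the other region. Of the 4 raphe neuron markers, Fev and Gata3 were not among the tabulated genes, and Tph2 and Slc6a4 together stayed at 144 or below in every library. Single markers stood apart in several libraries. Drd2, a striatal gene, was at 461 in WT cortex replicate 1 at PWK 1 against 60.9 to 78.1 in its group, and at 554 in KI cortex replicate 2 at PWK 14 against 30.4 to 34.6. Ttr, made by the choroid plexus, was at 20074 in WT cortex replicate 2 at PWK 28 against 161 to 560 in its group. Gfap, an astrocyte gene, was at 131431 in KI hippocampus replicate 1 at PWK 14 against 40059 to 47169, and in the cortex library of the same group and number it was at 12404 against 4322 to 5221. Hippocampal Ttr spread over a wide range within several groups. Calls that were lost without one of these libraries are named with their results. Total Cyfip2, which cannot report the point change, averaged 41799 in WT and 33510 in KI cortex at PWK 14 (SDs 1928 and 4130, n = 4 each), and 32306 in WT and 28624 in KI hippocampus (SDs 2301 and 6788). The KI mean was above the WT mean at PWK 1 (19505 against 18111.5 in cortex, 15976 against 15205.5 in hippocampus). At PWK 7 it was above in cortex (38346 against 35623) and below in hippocampus (29045 against 30520). At PWK 28 it was below in each region (25727 against 34726.5 and 26863 against 27610).

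In WT mice each region had its own leading receptor. Htr2a, which codes for the Gq-coupled receptor of cortical pyramidal cells, had the highest mean per kilobase of exon in WT cortex at all 4 ages, with 171 ± 29.6 normalized counts per kb at PWK 1 and 403 ± 29.6 at PWK 28 (SD, n = 4). At PWK 1 Htr7, at 162 ± 39.2 per kb, was within its spread, and without WT replicate 1, the library with high Drd2, Htr7 was at 181 ± 6.81 and Htr2a at 173 ± 36.1 (SD, n = 3). At PWK 28 Htr5a followed at 129 ± 11.4 and Htr1b at 117 ± 4.42 per kb. Htr4 was the lowest in cortex, at 5.49 ± 1.88 per kb. In hippocampus Htr2c led at PWK 1 (227 ± 22.8 per kb) and Htr1a at PWK 7 (199 ± 15.3), PWK 14 (268 ± 7.84) and PWK 28 (244 ± 17.0), while Htr1f was lowest at each age. Hippocampal Htr2c was at 175 ± 51.4 per kb at PWK 7 and 229 ± 56.9 at PWK 28, each within its own spread of Htr1a. The length used was that of all annotated exons merged, 9328 bases for Htr2c and 4484 for Htr1a. Before that division the hippocampal Htr2c mean exceeded that of Htr1a, at 1631 against 892 normalized counts at PWK 7. At PWK 14 and 28 the means were 1407 against 1204 and 2135 against 1095. When the 16 groups were put in order of the level of one gene, the neighbours in that order mostly overlapped: the values of adjacent groups were separate in 2 of 15 steps for Htr1f, Htr4 and Htr5a, in 1 of 15 for Htr1a, Htr2a, Htr3a and Htr7, and in 0 of 15 for Htr1b and Htr2c.

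**Figure D1:**
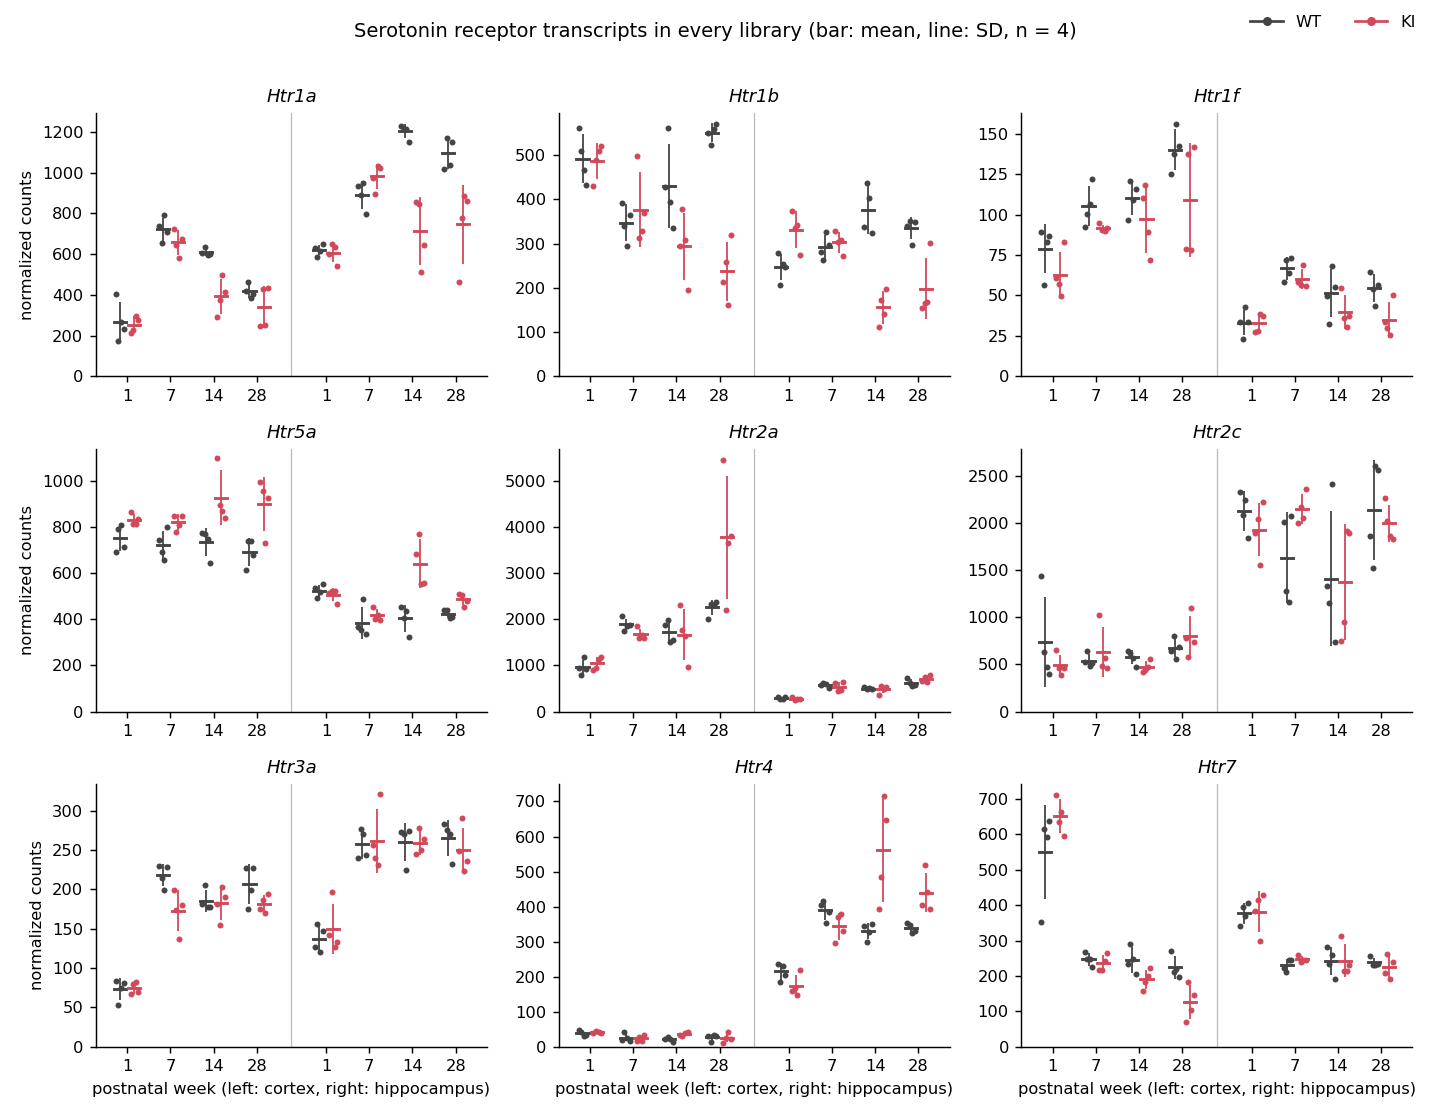
Level of each receptor gene in every library, in normalized counts on a linear axis from 0, against postnatal week, with cortex on the left and hippocampus on the right of each panel (grey WT, red KI; bar, mean; line, SD; n = 4). At PWK 14 and 28 the KI means of Htr1a and Htr1b lie below and those of Htr5a above the WT means in each region. The points overlap in cortex for Htr1a and Htr5a at PWK 28 and Htr1b at PWK 14, and in hippocampus for Htr1b at PWK 28. Htr4 is near the floor of its axis in cortex.

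Most receptor genes differed between the regions of WT mice, and 6 of the 9 passed the test in one direction at every age. The share of all genes that do so was not counted, and only the shares called at each single age are given. Hippocampus exceeded cortex for Htr4, Htr2c and Htr1a, and cortex exceeded hippocampus for Htr2a, Htr1f and Htr5a, with adjusted p under 0.05 at all 4 ages. By limma on log2(value + 1), with Benjamini-Hochberg adjustment over all genes, the 4 ages in turn gave calls for 9, 6, 7 and 8 of the 9 genes, where 34.7%, 40.8%, 34.6% and 37.8% of all genes were called. At PWK 1 the excess of Htr1a, Htr2c (2.11) and Htr4 (2.56) was also called without cortex replicate 1, the library with high Drd2. WT hippocampal libraries differed widely in the choroid plexus gene Ttr. At PWK 14 Htr2c was at 2415 where Ttr was 94520 and at 732 where Ttr was 877, against 474 to 644 in WT cortex. The part of choroid plexus in the Htr2c excess was not tested. The widest gap was that of Htr4, the Gs-coupled receptor, with 20.0, 41.0, 25.4 and 17.3 normalized counts in the 4 WT cortex libraries of PWK 7 and 406, 417, 353 and 386 in hippocampus. Its hippocampal excess was 2.46 ± 0.16 (log2, SE) at PWK 1 (adjusted p = 8.11e-07) and 3.94 ± 0.22 at PWK 7 (adjusted p = 1.24e-07). Htr2a was lower in hippocampus by a nearly constant amount, from -1.71 ± 0.11 at PWK 1 to -1.87 ± 0.09 at PWK 28. The Htr1a excess was not constant, with 1.28 ± 0.20, 0.31 ± 0.08, 0.98 ± 0.05 and 1.39 ± 0.07 at the 4 ages in turn, though the PWK 7 call was lost with all 64 libraries in one fit (adjusted p = 0.166). Htr3a, the ion channel, was higher in hippocampus at PWK 1 (0.92 ± 0.17), PWK 14 (0.49 ± 0.10) and PWK 28 (0.36 ± 0.11) and missed the threshold at PWK 7 (0.24 ± 0.09, adjusted p = 0.0542). Its PWK 28 call was lost without WT cortex replicate 2, the library with high Ttr (adjusted p = 0.0595), and without cortex replicate 3 or hippocampus replicate 1, 2 or 3 (up to 0.0655). Htr1b had the lower mean in hippocampus at every age and passed the test at PWK 1 (-0.99 ± 0.11) and PWK 28 (-0.72 ± 0.07). It did not at PWK 7 (-0.25 ± 0.10, adjusted p = 0.0825, but 0.0270 without cortex replicate 3 and 0.0437 without hippocampus replicate 3) or PWK 14 (-0.18 ± 0.15, adjusted p = 0.389). Htr7 was lower in hippocampus at PWK 1 (-0.51 ± 0.16, adjusted p = 0.0333), a call lost without cortex replicate 2, 3 or 4 or hippocampus replicate 1, 2 or 3 (up to 0.0974) or under total-sum scaling (0.0603), and at the later ages its difference lay between -0.09 and 0.09.

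**Figure D2:**
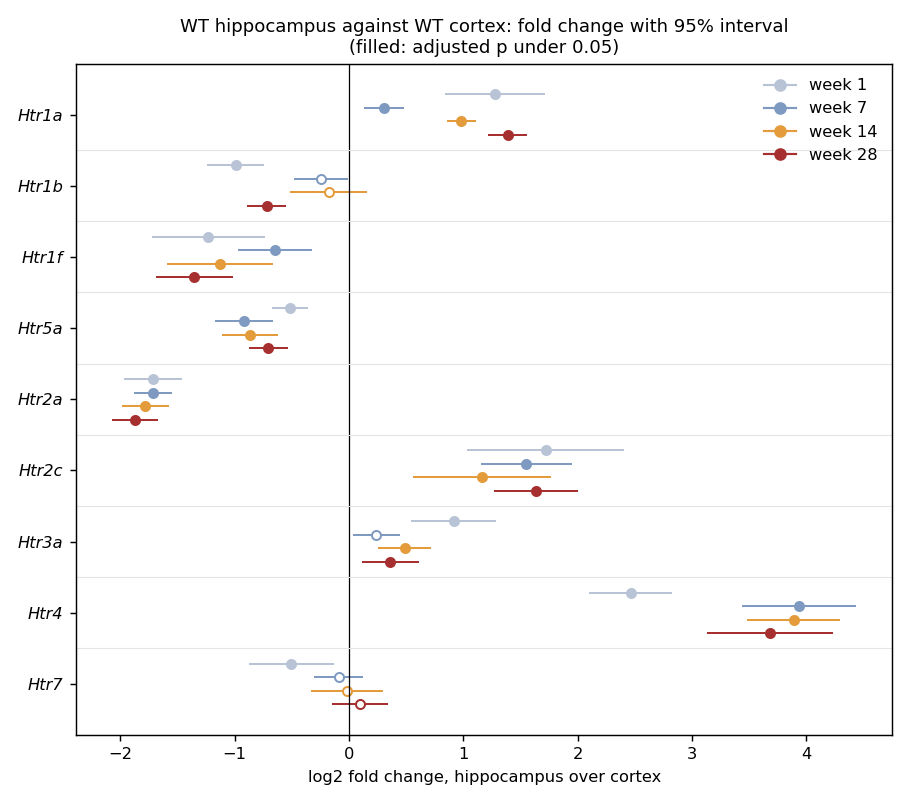
WT hippocampus over WT cortex for each receptor gene, as log2 fold change with its 95% interval at PWK 1, 7, 14 and 28 (filled points, adjusted p under 0.05; n = 4 per group). Htr4 lies farthest right, at 2.46 to 3.94, and Htr2a farthest left, at -1.71 to -1.87.

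Receptor transcripts of WT mice changed mainly between PWK 1 and PWK 7, when most of the transcriptome changed as well. In cortex 4 genes rose and 2 fell, and 65.3% of all genes were called (32.5% higher and 32.7% lower). Htr3a rose by 1.58 ± 0.15 (log2, SE; adjusted p = 2.03e-06), Htr1a by 1.49 ± 0.20, Htr2a by 0.99 ± 0.10 and Htr1f by 0.43 ± 0.17, while Htr7 fell (-1.11 ± 0.16) and Htr1b fell (-0.50 ± 0.11). The cortical Htr7 value of WT replicate 1 at PWK 1, the library with high Drd2, was 351 against 592, 614.5 and 639 in the other 3. Without it the same comparison still called 6 of the 9 genes. The Htr1f call (adjusted p = 0.0444) was lost without replicate 2 or 3 of PWK 1 or replicate 2, 3 or 4 of PWK 7 (up to 0.123), under TMM-type scaling (0.0533) and with all 64 libraries in one fit (0.0661). In hippocampus 5 genes rose, namely Htr1f (1.01 ± 0.20), Htr2a (0.99 ± 0.09), Htr3a (0.90 ± 0.11), Htr4 (0.86 ± 0.10) and Htr1a (0.52 ± 0.07), and 2 fell, Htr7 (-0.70 ± 0.09) and Htr5a (-0.46 ± 0.11), against 61.3% of all genes called (30.9% higher and 30.4% lower). Htr7, a Gs-coupled receptor, thus fell and Htr2a, Htr3a, Htr1a and Htr1f rose in each region. From PWK 7 to 14 no receptor gene was called in cortex (5.32% of all genes called by limma), and Htr1a rose in hippocampus by 0.43 ± 0.06 (adjusted p = 0.0116; 1.99% of all genes). In that cortical step 2 of 9 had an unadjusted p under 0.05, beside 3822 of all 18353 genes. From PWK 14 to 28 cortical Htr1a fell (-0.54 ± 0.07, adjusted p = 0.00117) and cortical Htr2a rose by 0.40 ± 0.09 (adjusted p = 0.0161), with 12.0% of all genes called. In hippocampus 0 of 9 were called (8.11% of all genes), and 3 of 9 had an unadjusted p under 0.05, beside 4513 of all 18387 genes. With all 64 libraries in one fit, the hippocampal Htr1a rise (adjusted p = 0.191) and the cortical Htr2a rise (0.112) missed the threshold. Successive steps share the libraries of the age between them, and the same WT libraries are the reference for the KI mice below.

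Against WT littermates, KI mice showed no called receptor gene at PWK 1 or 7 and several at PWK 14 and 28. In every region and age the test compared 4 KI with 4 WT libraries by limma, with adjustment over all genes. At PWK 1 the calls were 0 of 9 in each region, beside 0.00546% of all genes called in cortex and 0.0109% in hippocampus. An unadjusted p under 0.05 was reached there by 1 of 9 in cortex (965 of all 18311 genes) and 2 of 9 in hippocampus (1003 of 18361). At PWK 7 the calls were again 0 of 9, beside 0.00545% and 0.0218% of all genes called. An unadjusted p under 0.05 was reached there by 3 of 9 in cortex (1477 of all 18358 genes) and 1 of 9 in hippocampus (1144 of 18390). At PWK 14 there was 1 call in cortex, lower in KI (5.18% of all genes; 2.48% higher and 2.7% lower), and there were 4 in hippocampus, 2 in each direction (15.6%; 7.64% and 7.95%). At PWK 28 there were 4 in cortex, 2 in each direction (22.2%; 12.2% and 10.0%), and 3 in hippocampus, of which 1 was higher and 2 were lower (15.8%; 8.92% and 6.91%). The groups did not overlap for 3 and 4 genes at PWK 14 (14.2% and 23.8% of all genes) and for 2 and 3 genes at PWK 28 (25.8% and 21.5%). The members' median change was small because genes went both ways: -0.20 in cortex and -0.02 in hippocampus at PWK 14, and -0.18 and -0.09 at PWK 28, where the median over all genes was -0.00, 0.01, -0.00 and 0.00. In bulk tissue, fewer cells that carry a receptor and less RNA of it in each cell cannot be told apart.

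**Figure D3:**
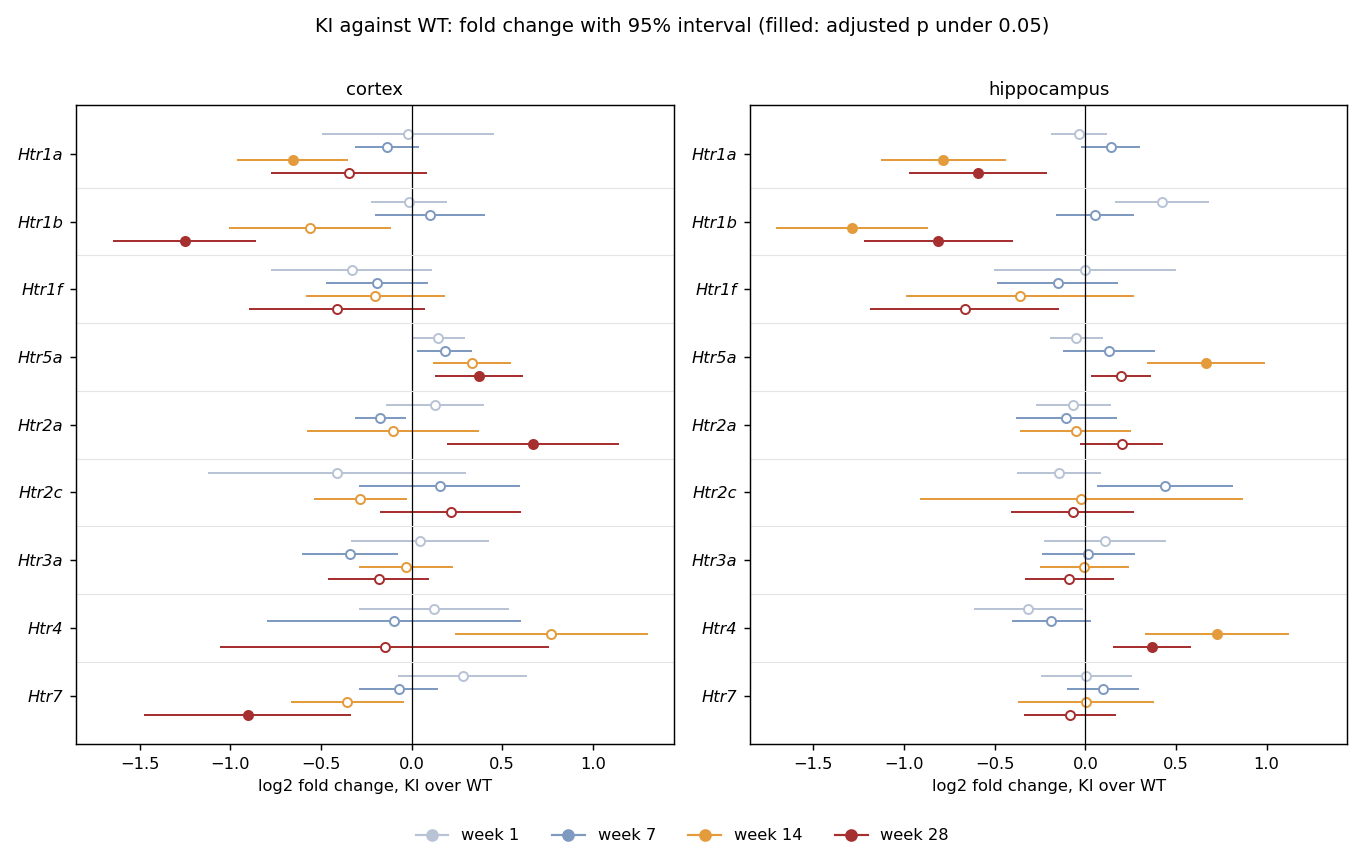
KI over WT for each receptor gene, as log2 fold change with its 95% interval, in cortex (left) and hippocampus (right) at the 4 ages (filled points, adjusted p under 0.05; n = 4 per group). Filled points appear at PWK 14 and 28 only, left of 0 for Htr1a, Htr1b and Htr7 and right of 0 for Htr2a, Htr4 and Htr5a.

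Htr1a codes for the Gi-coupled autoreceptor of raphe neurons, which in the forebrain sits on pyramidal cells and opens potassium channels. The gene is at chr13:105443639-105448122. It fell in KI hippocampus at both late ages and in KI cortex at PWK 14. In hippocampus at PWK 14 the KI libraries held 854.5, 846, 511 and 645 normalized counts and the WT libraries 1232, 1216, 1214 and 1152. Every KI value lay below every WT value, and the change was -0.78 ± 0.15 (log2, SE; adjusted p = 0.00958), a ratio of 0.581. At PWK 28 the KI values were 465, 779.5, 885 and 859 and the WT values 1021, 1171, 1039 and 1149, again apart, with a change of -0.59 ± 0.17 (adjusted p = 0.0370) that was lost when KI replicate 2 or any WT library was left out (adjusted p up to 0.0884), and without the filter on low genes (0.0501). In cortex at PWK 14 the KI values were 289, 374, 496 and 415 and the WT values 605, 634, 596 and 601. The cortical change was -0.65 ± 0.14 (adjusted p = 0.0227), and it missed the threshold when KI replicate 2, the library with high Drd2, was left out (-0.64 ± 0.15, adjusted p = 0.0622) and when any WT library was left out (adjusted p up to 0.0682). At PWK 28 the cortical groups overlapped, at 245 to 435 in KI and 384.5 to 464 in WT, and the change was -0.35 ± 0.19 (adjusted p = 0.226). The hippocampal change at PWK 14 held without KI replicate 1, the library with high Gfap, and without any other single library (adjusted p up to 0.0354).

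Htr1b codes for the Gi-coupled receptor of axon terminals, where it limits transmitter release, and its transcript lies in the cell bodies of those axons. The gene is at chr9:81628291-81633828. It showed the largest falls of the 9 genes. In cortex at PWK 28 the KI libraries held 213, 258, 161 and 319 normalized counts and the WT libraries 551, 522, 559.9 and 570.5, with no overlap and a change of -1.25 ± 0.18 (adjusted p = 0.00102), a ratio of 0.420. In hippocampus at PWK 14 the KI values were 112, 172, 141 and 198 and the WT values 338, 437, 404 and 324, also apart, with a change of -1.29 ± 0.19 (adjusted p = 0.00276), a ratio of 0.410. In hippocampus at PWK 28 the KI values were 155, 166, 169 and 301 and the WT values 341, 352, 297 and 349. Here KI replicate 4 passed the lowest WT value, and the change was -0.81 ± 0.19 (adjusted p = 0.0135). None of these 3 calls was lost when 1 library was left out, at adjusted p up to 0.00499, 0.0142 and 0.0404. In cortex at PWK 14 the change was -0.56 ± 0.20 (adjusted p = 0.138), with KI at 195 to 379 and WT at 336 to 561. It was called with the replicate block (adjusted p = 0.0250) and with all 64 libraries in one fit (0.0310). At PWK 1 in hippocampus the KI mean was the higher one, 332 ± 41.6 against 247 ± 30.2 (SD, n = 4), which did not pass the test (0.42 ± 0.12, adjusted p = 0.808).

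Htr1f (chr16:64924729-65105854), which codes for a further Gi-coupled receptor and a target of migraine drugs, was in no call. Its KI mean was below the WT mean in each of the 8 comparisons, with changes from -0.66 to -0.00 on the log2 scale. In hippocampus at PWK 28 the KI values were 33.7, 30.0, 25.2 and 50.3 and the WT values 64.3, 54.0, 43.5 and 56.3, and the change was -0.66 ± 0.23 (adjusted p = 0.0796).

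Htr5a, whose Gi-coupled receptor is found mainly in the brain, moved the opposite way. It rose in KI hippocampus at PWK 14, where the KI libraries held 684, 772, 552 and 559.6 and the WT libraries 454, 405, 435 and 322. The groups did not overlap, the change was 0.66 ± 0.14 (adjusted p = 0.0147, a ratio of 1.59), and it held when any single library was left out (adjusted p up to 0.0445). In cortex at PWK 28 it rose by 0.37 ± 0.11 (adjusted p = 0.0308), with KI at 994, 955, 732 and 928 and WT at 613, 742, 740.1 and 679.6. There KI replicate 3 lay within the WT values, and the call was lost without KI replicate 1, 2 or 4 or WT replicate 1 or 4 (adjusted p up to 0.0883), under total-sum scaling (0.0605), with quality weights (0.0544) and with the replicate block (0.0579). The KI cortex also lay above WT without overlap at PWK 14 (841 to 1101.5 against 645 to 775, adjusted p = 0.0736), which did not pass the test. At PWK 1 it lay just above WT without overlap (812 to 865 against 693 to 810). At PWK 7 the KI cortex mean was higher but the groups overlapped (821 ± 34.4 against 724 ± 61.2, SD, n = 4). Neither was called. The hippocampal difference at PWK 28 was 0.20 ± 0.07 (adjusted p = 0.0894), with 453 to 510.3 in KI and 407 to 441 in WT.

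Htr2a, at chr14:74640840-74709494, codes for the Gq-coupled receptor through which psychedelic drugs act. It rose in KI cortex at PWK 28 alone among the 8 comparisons, though the KI libraries were uneven. The KI libraries held 5443, 2192, 3654 and 3817 normalized counts and the WT libraries 2017, 2333, 2312 and 2385. In 3 of 4 KI libraries the value was above every WT value, and in KI replicate 2 it lay among them. The change was 0.67 ± 0.21 (adjusted p = 0.0444, a ratio of 1.59), and the call was lost when any library other than KI replicate 2 was left out (adjusted p up to 0.112), without the filter on low genes (0.0588) and under total-sum scaling (0.0534). Leaving out KI replicate 1, the highest, gave 0.47 and leaving out KI replicate 2 gave 0.91. In hippocampus Htr2a was in no call, with differences from -0.10 to 0.20 on the log2 scale over the 4 ages.

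Htr2c, at chrX:146962513-147197277, codes for the other Gq-coupled receptor, known for its high level in the choroid plexus, the tissue that makes cerebrospinal fluid. It was in no call between genotypes, and its hippocampal values varied widely between libraries of some groups, most at PWK 14. At PWK 14 the KI libraries held 744.5, 946, 1911 and 1887 normalized counts and the WT libraries 1334, 1148, 2415 and 732. The choroid plexus gene Ttr in these libraries was at 787, 15037, 89253 and 79101 in KI and at 1150.05, 16386, 94520.0 and 877 in WT. In KI the 2 libraries low in Ttr were the 2 low in Htr2c, and in WT the library with most Ttr held most Htr2c and the library with least Ttr held least. At PWK 7 the WT values were 2009.5, 1277, 1160.2 and 2077, beside Ttr of 80928, 31323, 593 and 87362, and the KI values 1994, 2170.5, 2054 and 2361, beside 36490.5, 91868, 87406 and 81456. The PWK 7 difference was 0.44 ± 0.17 (adjusted p = 0.729), and that of PWK 14 was -0.02 with an interval from -0.91 to 0.86. Summed over 9 choroid plexus markers, the hippocampal libraries ranged from 326 to 130534 and the cortical ones from 152 to 22523. No group had any of the 9 markers at 0 in all of its libraries. The part of these markers in the Htr2c values was not tested. In cortex the highest Htr2c value of the 32 libraries, 1435, was in WT replicate 1 at PWK 1, the library with high Drd2, where Ttr was at 24.3. Without it the PWK 1 difference between genotypes went from -0.41 to -0.02.

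**Figure D4:**
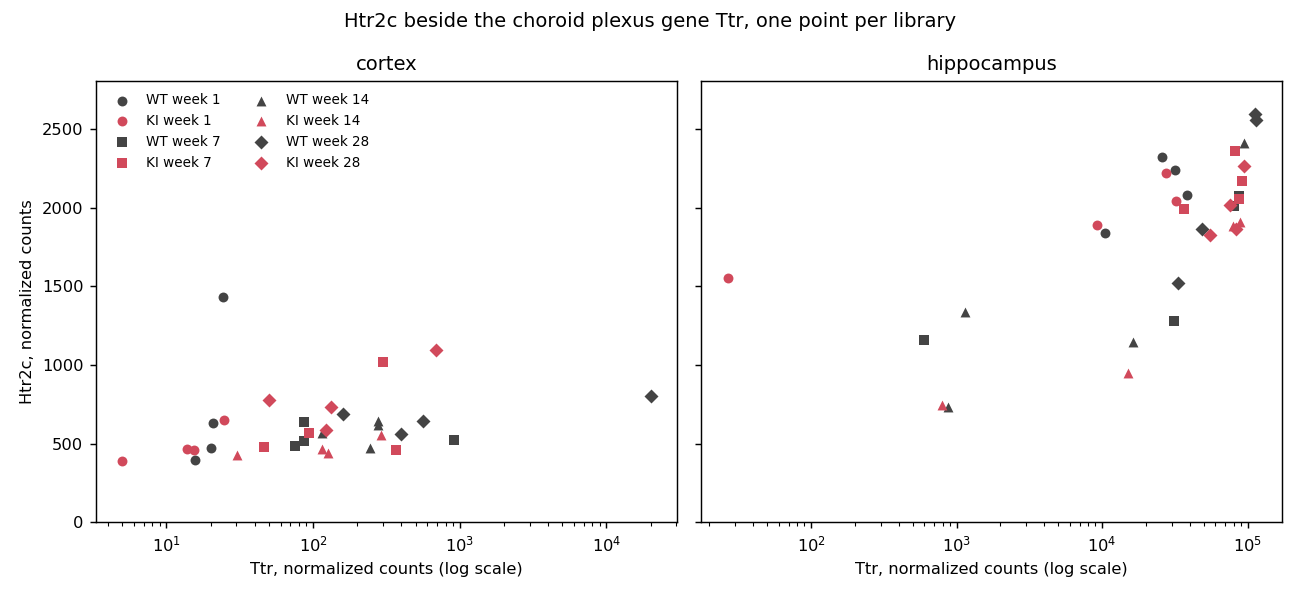
Htr2c against Ttr in each library, both in normalized counts (Ttr on a log axis), for cortex (left) and hippocampus (right), with genotype by colour and age by symbol. Hippocampal Htr2c ranges from 732 to 2599, and 1 cortical library lies at 1435 with Ttr at 24.3.

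Htr3a, at chr9:48899213-48911099, codes for the subunit that every 5-HT3 channel needs, and in cortex it marks a class of interneurons. It was in no call in any of the 8 comparisons. At PWK 28 it averaged 207 ± 25.2 in WT and 181 ± 11.2 in KI cortex, and 265 ± 22.6 in WT and 249.5 ± 29.0 in KI hippocampus (SD, n = 4). The 95% intervals of the difference ran from -0.45 to 0.09 in cortex and from -0.33 to 0.15 in hippocampus on the log2 scale. The summed level of 8 markers of interneurons that carry Htr3a overlapped between genotypes at PWK 14 and 28 in each region.

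Htr4, the Gs-coupled receptor of hippocampal principal cells, rose in KI hippocampus. At PWK 14 the KI libraries held 394.5, 485, 715 and 648 normalized counts and the WT libraries 345.5, 299, 328.5 and 349. The groups were apart, and the change was 0.72 ± 0.17 (adjusted p = 0.0231, a ratio of 1.65). At PWK 28 the KI values were 406, 518, 441.5 and 393 and the WT values 353, 347, 325 and 331, again apart, with a change of 0.37 ± 0.10 (adjusted p = 0.0247). The PWK 14 call was lost without KI replicate 4 or any WT library (adjusted p up to 0.0704) and the PWK 28 call without KI replicate 3 or any WT library (up to 0.0646) or with all 64 libraries in one fit (0.328). In cortex, where the gene is low, KI lay above WT at PWK 14 (31.5 to 43.6 against 14.8 to 27.8) without passing the test (0.77 ± 0.24, adjusted p = 0.0928), and at PWK 28 the groups overlapped (11.6 to 41.9 against 13.1 to 32.5).

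Htr7 (chr19:35958734-36057507), which codes for the other Gs-coupled receptor, fell in KI cortex at PWK 28. The KI libraries held 71.1, 183, 103.5 and 147 normalized counts and the WT libraries 270.1, 211, 219 and 198. All KI values were below all WT values, and the change was -0.90 ± 0.26 (adjusted p = 0.0288, a ratio of 0.534). The call was lost without KI replicate 3 or any WT library (adjusted p up to 0.0833), WT replicate 2 with its high Ttr among them (-0.93 ± 0.29, adjusted p = 0.0592). In hippocampus at PWK 28 the KI mean was 226 ± 31.6 and the WT mean 238 ± 12.8 (SD, n = 4), with a change of -0.09 ± 0.11.

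Whether the KI effect differed between regions or ages was tested as an interaction, since a call in 1 group and not in another does not show a difference. Between hippocampus and cortex no receptor gene differed in its KI effect at PWK 14 or PWK 28 (0 of 9 each by limma; 2.85% and 4.57% of all genes called). An unadjusted p under 0.05 was reached by 1 of 9 at each age, beside 3257 of all 18424 genes at PWK 14 and 3430 of 18413 at PWK 28. The Htr7 interaction at PWK 28 was 0.82 ± 0.30 (log2, SE; adjusted p = 0.134), and it was called with a replicate block that takes equal numbers of a genotype as 1 mouse (± 0.21, adjusted p = 0.0401), with all 64 libraries in one fit (0.0213), with quality weights (0.0465) and without KI cortex replicate 2 (0.0190). That of Htr2a was -0.47 ± 0.26 (adjusted p = 0.349) and that of Htr1b at PWK 14 -0.73 ± 0.29 (adjusted p = 0.201). Between PWK 7 and PWK 14 the hippocampal KI effect changed for 3 of 9 genes (10.3% of all genes). It became more negative for Htr1b by -1.34 ± 0.21 (adjusted p = 0.00110) and for Htr1a by -0.92 ± 0.18 (adjusted p = 0.00374), and more positive for Htr4 by 0.91 ± 0.21 (adjusted p = 0.0111, but 0.0587 with all 64 libraries in one fit). All 3 were also called without KI replicate 1 of PWK 14, the library with high Gfap (adjusted p up to 0.000881). Htr5a followed at 0.53 ± 0.19 (adjusted p = 0.0898). In cortex the same step gave 0 of 9 (3.18% of all genes), with Htr1a at -0.52 ± 0.17 (adjusted p = 0.106). An unadjusted p under 0.05 was reached there by 3 of 9, beside 3064 of all 18383 genes. From PWK 14 to PWK 28 the KI effect changed for 0 of 9 genes in each region and for 0 genes of the whole table. An unadjusted p under 0.05 was reached by 3 of 9 in cortex (2770 of all 18398 genes) and 1 of 9 in hippocampus (2274 of 18411). These tests share the PWK 14 libraries.

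The other genes of the serotonin pathway were counted by role. Of the 3 other receptor genes in the table, Htr1d, Htr5b and Htr6, only Htr5b was called. Htr5b, the rodent sister gene of Htr5a, fell in hippocampus while Htr5a rose: at PWK 14 it was at 56.7, 90.7, 77.6 and 77.4 in KI and at 165, 182, 149 and 177 in WT, a change of -1.16 ± 0.17 (adjusted p = 0.00297). At PWK 28 the hippocampal change was -1.15 ± 0.18 (adjusted p = 0.00168), from 164 ± 24.2 to 74.0 ± 15.1 (SD, n = 4). In cortex at PWK 28 it was at 9.91, 7.90, 8.82 and 3.09 in KI and at 30.2, 30.4, 51.7 and 49.6 in WT (-2.35 ± 0.37, adjusted p = 0.00184). In all 3 comparisons the groups did not overlap, and no call was lost when 1 library was left out (adjusted p up to 0.0157). Cortical Htr5b was low at the earlier ages: over PWK 1, 7 and 14 it was at 5.71 to 21.2 in WT and 7.28 to 17.2 in KI. At PWK 28 the KI cortex values lay within or below these ranges, and the WT values lay above them.

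Of 15 genes of serotonin synthesis, transport and breakdown, 1 rose and 0 fell in KI cortex at PWK 14, 4 rose and 2 fell at PWK 28, and in hippocampus 0 and then 3 rose and 0 fell. Over all genes, 2.48% were called higher and 2.7% lower in cortex at PWK 14 and 12.2% and 10.0% at PWK 28, and in hippocampus 7.64% and 7.95% and then 8.92% and 6.91%. Slc29a4, the plasma membrane monoamine transporter, rose in cortex at PWK 14 (340 ± 176 against 114 ± 17.2, adjusted p = 0.0146) and PWK 28 (521 ± 170 against 173 ± 46.9, adjusted p = 0.00189), also without any 1 library (up to 0.0486). Slc18a2, which loads monoamines into vesicles, rose in hippocampus at PWK 28, with 301, 189.8, 221 and 196 in KI and 88.1, 97.5, 46.1 and 78.0 in WT (1.57 ± 0.23, adjusted p = 0.00130). In cortex at PWK 28 Tph2, the enzyme that limits serotonin synthesis in neurons, rose from 12.7 ± 6.54 to 32.4 ± 5.61 (adjusted p = 0.0174), both low levels, and the sum of Tph2 and Slc6a4, the raphe markers in the table, was 24.2 to 39.5 in KI and 8.51 to 21.6 in WT. In the same comparison Slc22a3, a low-affinity uptake transporter, fell from 55.4 ± 4.87 to 27.9 ± 12.5 (adjusted p = 0.0222; SD, n = 4). The Tph2 call was lost without WT replicate 4 (0.0502) and the Slc22a3 call without KI replicate 1 or 3 or WT replicate 1, 2 or 4 (up to 0.0600).

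Of 32 coupling and effector genes, 0 rose and 3 fell in KI cortex at PWK 14 and 4 rose and 8 fell at PWK 28, while 3 rose and 7 fell in hippocampus at PWK 14 and 5 rose and 4 fell at PWK 28, to be read beside the shares of all genes called in each direction given above. Itpr1, the channel that releases calcium after Gq signals, fell in all 4 of these comparisons, most in hippocampus at PWK 14 (7999 ± 2130 against 14779 ± 1408; -0.93 ± 0.18, adjusted p = 0.0110). Its call in cortex at PWK 14 was lost without KI replicate 4 or any WT library (up to 0.0895) and under total-sum scaling. Rgs4, which switches off Gi and Gq proteins, rose in hippocampus at PWK 14 (9370 ± 3165 against 3334 ± 55.3, adjusted p = 0.00263) and PWK 28 (7701 ± 1229 against 3971 ± 263, adjusted p = 0.000126). S100a10, whose protein p11 binds the receptor coded by Htr1b, rose in hippocampus at PWK 14 (758 ± 472 against 252 ± 42.6; 1.42 ± 0.33, adjusted p = 0.0199; SD, n = 4), the highest KI value being 1453 in replicate 1, the library with high Gfap. Without that library the rise was 1.05 (adjusted p = 0.00314), and the call was lost without WT replicate 1 or 4 (up to 0.0615). S100a10 also rose in hippocampus at PWK 28 (0.58 ± 0.11, adjusted p = 0.00518) and fell in cortex at PWK 28 (-0.40 ± 0.10, adjusted p = 0.0148), the latter not with all 64 libraries in one fit.

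**Figure D5:**
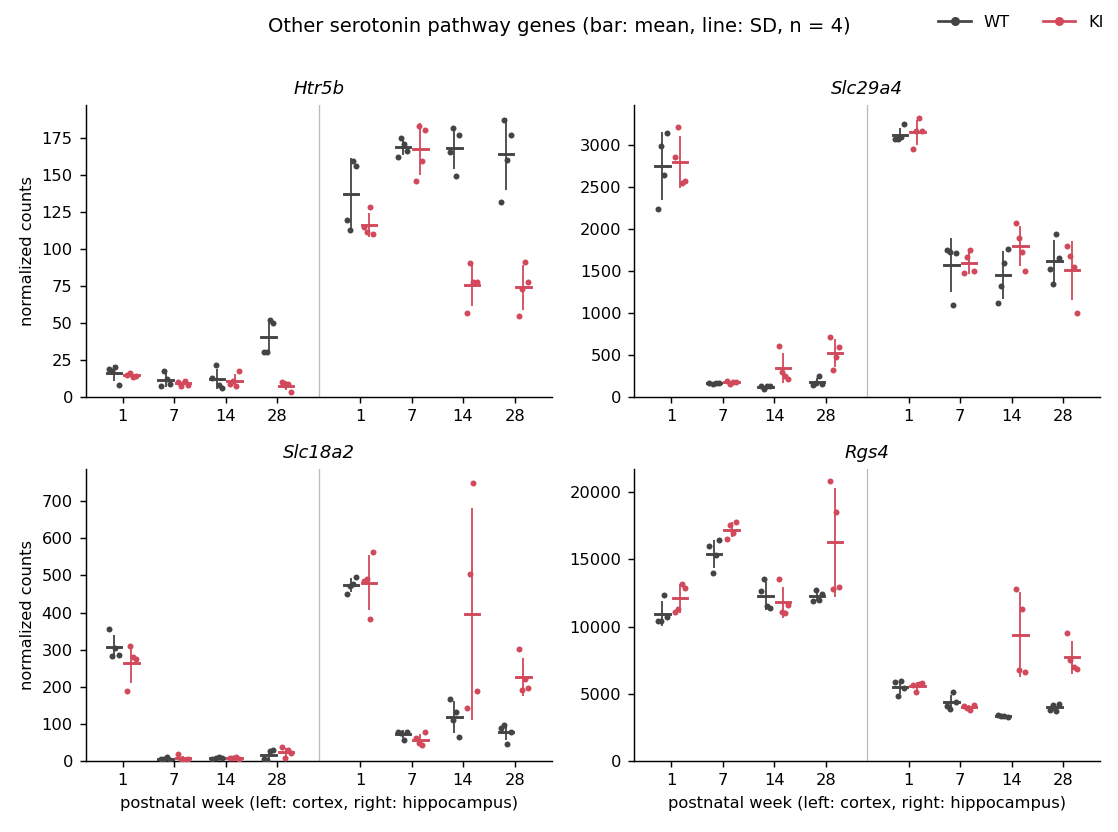
Htr5b, Slc29a4, Slc18a2 and Rgs4 in every library, in normalized counts from 0, by postnatal week with cortex on the left and hippocampus on the right (grey WT, red KI; bar, mean; line, SD; n = 4). Hippocampal Htr5b is at 56.7 to 90.7 in KI mice at PWK 14, below all WT values of hippocampus. Rgs4 in KI hippocampus at PWK 14 and 28 lies above all WT values of hippocampus.

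Summed markers of other cell types separated by genotype at PWK 14 and 28, and for the microglial and CA3 lists in cortex also at PWK 7. In hippocampus the sum of 5 astrocyte markers was 73319.8 to 192957 in KI and 41003 to 45257 in WT at PWK 14, and 71271 to 82983 against 42632 to 44272 at PWK 28. At PWK 14 Gfap alone was a large part of the KI sums, by its values given with the dissection check. The sum of 5 CA1 pyramidal markers was 13170.0 to 15146 in KI and 17036 to 18708 in WT at PWK 14, and overlapped at PWK 28. The sum of 5 microglial markers was 8982 to 9812 in KI and 6919 to 8051 in WT hippocampus at PWK 28. The sum of 5 general neuronal markers overlapped in all 4 of these comparisons. In cortex the sum of the dentate list (Prox1, C1ql2, Dsp, Pdzd2, Lct and Calb1) was 5118 to 6253 in KI and 6486 to 7646 in WT at PWK 14, and 4883 to 6468 against 6934 to 8053 at PWK 28. The sum of the CA3 list (Bok, Cpne4, Iyd, Coch and Chgb) was higher in KI cortex, at 16461 to 18028 against 12418 to 13776 and at 19884 to 24756 against 14557 to 15302. Each of these separations had p = 0.0286 by a two-sided exact permutation test, the smallest that 4 against 4 allows, as did 16 of all 104 marker comparisons, and 0.186 after adjustment over the 104. Among those 16, the summed hippocampal list was higher by 0.41 (log2) in KI cortex at PWK 14. The cortical excitatory list was lower by a difference of -0.36 in KI hippocampus at PWK 14. The thalamic list (Tcf7l2, Lef1, Prkcd, Calb2 and Tnnt1) was lower by a difference of -0.87 in KI cortex at PWK 28. Also in KI cortex, the CA1 list was higher by 0.12 at PWK 28. The sum of Tph2 and Slc6a4 was higher there by 0.98 at PWK 14 and 1.25 at PWK 28. At PWK 7 in cortex, where no receptor gene was called, the microglial list differed by -0.16 and the CA3 list by 0.09. Their part in the receptor differences was not tested.

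Across the 16 group means, the genes most like each receptor gene were found among 14080 genes with a mean of at least 50 normalized counts. Htr1a was most like Gldc (Pearson r = 0.976), Acta2 and D16Ertd472e, Htr1b like Ngb (0.923), Mme and Clip1, and Htr1f like 4930447C04Rik (0.945), Il34 and Zfyve9. Htr5a was most like Pcdh7 (0.974), Lsp1 and Mybl1, Htr2a like Gm20939 (0.977), Usp32 and Eipr1, and Htr2c like Hmgn5 (0.969), Dhx40 and Chrm5. Htr3a was most like Phkg1 (0.985), Clmn and Btg3, Htr4 like Mirt1 (0.986), Homer3 and Cpne7, and Htr7 like Gm3636 (0.956) and Tle3. Among the receptor genes themselves the closest pair was Htr1f and Htr2a (r = 0.899) and the most opposed Htr2c and Htr5a (-0.869). These values describe groups that differ in region and age and share their libraries.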

How the data were processed

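Stranded RNA-seq libraries were made from 64 samples of frontal cortex or hippocampus. The deposited table holds one normalized signal per gene and library. Per the labels' processing notes the authors used Salmon 0.11.2, R 3.6.0 and DESeq2 1.19.11 with GRCm38, and per the study's methods transcript estimates were imported with tximport. Such scaling hides depth: libraries summed to 29.2 to 32.6 M, so precision was judged from the 4 replicates. Ensembl identifiers were matched to GENCODE for 18420 of 18432 genes. Genes with a mean under 1 in a comparison were dropped, and log2(value + 1) was fitted with limma 3.58.1 in R 4.3.3 (trend, Benjamini-Hochberg adjustment over all genes, threshold 0.05). Fold changes are on that scale, which understates those of low genes. The script was tested on simulated data. KI was compared with WT within region and age, WT ages and regions with each other, and interactions were fitted over 16 libraries.

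The 9 receptor genes and the pathway and marker lists were chosen with earlier results of these data known. All 9 passed the filter in every comparison. Other pathway genes are named where called between KI and WT, at most 2 per direction and comparison by size of change, and the 3 genes most like each receptor by Pearson correlation over group means. Some genes that this rule takes are not reported here. Htr5b, Slc29a4, Slc18a2 and Rgs4 were picked from these for display after their values were seen. The CA1, CA3 and dentate lists name hippocampal cell types, and some of their genes are also expressed in cortex. Alternatives changed the pseudocount, filter, scaling, weights, set of libraries and replicate block. For the called pathway genes, and for levels per kb without 1 library, they were added after seeing the data.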

Additional observations from a re-analysis of the deposited data

Results flagged for a closer look

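Of 144 sets of 4 values (9 receptor genes in 16 groups), 6 held 1 library far from the other 3, where chance gives about 1 in 20 sets, or 7.20. Htr1b in KI hippocampus at PWK 28 was at 300.7 in replicate 4 against 155 to 169 in the others. Htr7 in WT cortex at PWK 1 was at 351 in replicate 1, the library with high Drd2, against 592 to 639. Htr4 in WT cortex at PWK 28 was at 13.1 in replicate 2, the library with high Ttr, against 30.8 to 32.5. Htr3a in WT hippocampus at PWK 14 was at 224 in replicate 3 against 270.3 to 274. Htr5a in KI hippocampus at PWK 1 was at 467 in replicate 4 against 516 to 524. Htr7 in WT hippocampus at PWK 28 was at 257 in replicate 1 against 230.7 to 233.

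The KI effect in hippocampus differed between PWK 7 and PWK 14 by an interaction test across all genes in limma. The change in the effect was -0.92 for Htr1a, -1.34 for Htr1b and 0.91 for Htr4 on the log2 scale. The cause was not tested.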

How the results depend on the processing

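No receptor gene changed direction in any call under any alternative. Of 4001 single-gene values under alternatives, 3886 were unchanged in call and size, 67 lost the threshold, 37 newly passed it and 11 moved without being called. Counts of called receptor genes that moved by more than 1.5 times, or from or to 0, were as follows. With all 64 libraries in one fit, cortex at PWK 14 gave 4 in place of 1, the WT cortex step from PWK 14 to 28 gave 1 in place of 2, the WT hippocampus step from PWK 7 to 14 gave 0 in place of 1, and the region interaction at PWK 28 and the cortical age interaction from PWK 14 to 28 gave 1 each in place of 0. Total-sum scaling gave 2 in place of 4 in cortex at PWK 28 and 1 in place of 0 for the WT cortex step from PWK 7 to 14 and the WT hippocampus step from PWK 14 to 28. A minimum mean of 50 gave 1 in place of 0 for the same 2 steps. TMM-type scaling and quality weights each gave 1 for that hippocampal step, and quality weights gave 1 for the region interaction at PWK 28. The cause was not tested. Leaving out 1 library gave 0 to 1 called genes in cortex at PWK 14, 1 to 3 in cortex at PWK 28, 3 to 4 in hippocampus at PWK 14 and 1 to 4 in hippocampus at PWK 28. It gave 0 to 1 for the WT cortex step from PWK 7 to 14, 2 to 3 and 0 to 1 for the steps from PWK 14 to 28 in cortex and hippocampus, 0 to 2 for the region interaction at PWK 28 and 0 to 1 for the cortical age interaction from PWK 7 to 14.

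Deviations of same-numbered KI and WT libraries had a correlation above 0.1 in 10 of 32 pairs, and those of same-numbered cortex and hippocampus libraries in 17 of 32. The latter held for all 4 pairs in WT at PWK 1 (0.10 to 0.26) and in KI at PWK 28 (0.24 to 0.44) but for 0 of 4 in WT at PWK 7 and 28, so whether a number marks 1 mouse is unresolved. With the replicate block, cortex at PWK 14 gave 2 called genes, Htr1a and Htr1b, the region interaction at PWK 28 gave 1, Htr7, and cortical Htr5a at PWK 28 was lost. No call between WT regions changed with the block. Over all genes, the one fit of all libraries called 1946 in cortex and 6050 in hippocampus at PWK 14 where the separate fits called 951 and 2870, the replicate block called 1788 in hippocampus at PWK 14, and quality weights called 908 for the cortical age interaction from PWK 14 to 28 where there were 0. Higher genes made up 47.8% of the calls in cortex at PWK 14 (60.4% under total-sum scaling), 54.8% at PWK 28 (43.7%) and 56.3% in hippocampus at PWK 28 (40.6%). Depth could not be read from scaled values, so limits on low genes such as cortical Htr4 come from the spread between libraries only.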
